A study of Mus musculus with 90 samples.

Results

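Whole lungs of wild-type mice exposed to 120 ppm styrene for 4 weeks were compared with lungs of wild-type mice that breathed air (0 ppm) over the same 4 weeks. The arrays were chosen by their labels alone, 5 exposed and 5 control animals, which makes 10 of the 90 arrays of the study. All animals were adult male C57BL/6 mice, and the wild-type (WT) mice carried no engineered allele that the labels mention. Exposure ran for 6 h a day on 5 days a week, and the animals were killed on the morning after the last session. Each array holds total RNA of 1 whole lung, hybridised to an Affymetrix mouse 3' expression array, and its values are log2 intensities after robust multi-array averaging (RMA). The other groups used here, also with 5 animals each, were WT mice at 40 ppm for 4 weeks, WT mice at 120 and 0 ppm for 1 week, and 2 further genotypes at 120 and 0 ppm for 4 weeks. Knockout (KO) mice lack Cyp2f2 (CYP2F2 -/-). Transgenic (TG) mice lack it too and carry the human transgenes labelled 2F1, SA13 and 2B6, and the labels give no promoter for them.

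Styrene is an industrial vinyl monomer. In the mouse lung it is oxidised mainly by the cytochrome P450 Cyp2f2, which is abundant in club cells, the secretory cells of the bronchioles. Club cells also renew the bronchiolar lining after chemical injury. Many lung genes in addition follow the circadian clock, in which Arntl (Bmal1) pairs with Clock or Npas2 to switch on the Per, Cry, Nr1d and Dbp genes through E-box elements. Per and Cry proteins then repress that pair, and Nr1d proteins repress Arntl and Nfil3 through elements of the ROR type. Dbp, Tef and Hlf activate, and Nfil3 represses, genes with D-box elements.

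The 10 arrays looked alike as wholes: the array medians were 4.78 to 4.84 in exposed lungs and 4.8 to 4.83 in control lungs, and the correlation between any pair was 0.991 to 0.997. Markers of the airway secretory cells were bright in every lung. Scgb1a1, the major club cell secretoglobin, averaged 13.76 ± 0.03 in exposed lungs and 13.79 ± 0.06 in control lungs (SD, n = 5 each), and Scgb3a2, another airway secretoglobin, 13.35 ± 0.07 and 13.31 ± 0.08. Cyp2f2 itself averaged 13.19 ± 0.09 in exposed lungs and 13.27 ± 0.07 in control lungs, a difference of -0.08 (95% interval -0.26 to 0.09). An array value is a probe set's brightness, so levels were compared between groups and not between genes. In whole tissue, fewer cells of a type and less RNA per cell cannot be told apart.

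Of 17097 genes tested with limma, 75 passed at a Benjamini-Hochberg adjusted p of 0.05, which is 0.439% of all genes. Of these, 51 were higher (0.298%) and 24 lower (0.14%) in exposed lungs, and 57 differed by more than 1.5-fold. The median difference over all genes was 0.0085 on the log2 scale. Exposed and control animals did not overlap for 57 of the 75, against 375 genes or 2.19% of all genes. All exposed animals were above all controls for 38 of the 51, against 1.23% of all genes, and below for 19 of the 24, against 0.965%. The calls were made from the same animals, so less overlap among the called genes follows in part from the choice of genes. The largest rises were Dbp, a clock-output transcription factor, Ces1g, a carboxylesterase that hydrolyses esters and amides, and Gp2, a glycoprotein of secretory granules and of M cells. The deepest falls were Arntl and Npas2. Without exposed animal 4 the count was 47, and without exposed animal 2 it was 48. Just inside the threshold lay Rnf43, Spint1 and Gsto1 with differences of 0.44, 0.47 and 0.65, and just outside lay Golt1a, Tbc1d8 and Col5a3 with 0.58, -0.48 and -0.59.

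**Figure D1:**
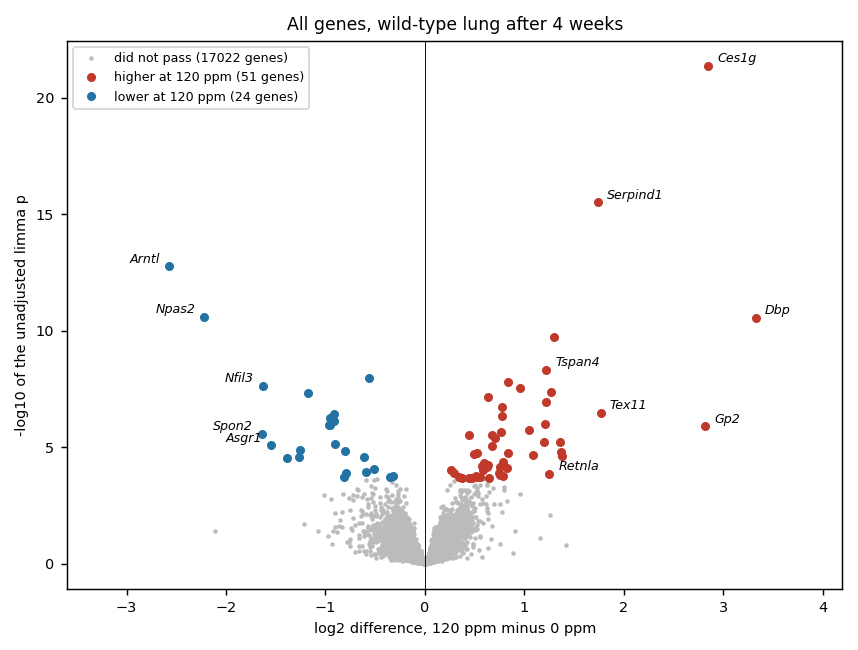
Each point is 1 of the 17097 genes, with the log2 difference (120 ppm minus 0 ppm, WT lung after 4 weeks) on the x axis and -log10 of the unadjusted limma p on the y axis. The 51 genes that were higher and the 24 that were lower are coloured, and Ces1g, Serpind1, Arntl, Npas2 and Dbp lie highest among those labelled.

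Genes of the circadian clock moved in both directions. Of 20 measured clock genes 9 passed, against 0.439% of all genes (0.298% higher and 0.14% lower). The clock lists were written with earlier results of these data known. In 4 groups by role, 2 of 3 activators were lower and 1 of 3 nuclear receptor genes was higher. Of 8 Period, cryptochrome and related repressor genes 2 were higher, and of 6 output genes 3 were higher and 1 was lower. RefSeq promoters (GRCm38.p6, 250 bases before to 50 after the start site) were found for all 9. They were searched on both strands for 3 clock elements, the E-box CACGTG, the D-box TTANGTAA and the core of the ROR element, TNGGTCA. The promoters of Arntl, Per3, Bhlhe41, Tef and Nfil3 held a match and those of Npas2, Nr1d2, Dbp and Hlf held none in this window. The 5 with a match are shown because they place each kind of element beside a gene that moved, with the matches in capitals and no overlap between matches.
Arntl: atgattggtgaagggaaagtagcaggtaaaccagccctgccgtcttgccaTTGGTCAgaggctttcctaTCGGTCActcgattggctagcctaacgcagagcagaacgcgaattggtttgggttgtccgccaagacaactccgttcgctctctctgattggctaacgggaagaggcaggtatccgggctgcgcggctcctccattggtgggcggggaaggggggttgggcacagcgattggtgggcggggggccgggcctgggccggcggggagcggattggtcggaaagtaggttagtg
Per3: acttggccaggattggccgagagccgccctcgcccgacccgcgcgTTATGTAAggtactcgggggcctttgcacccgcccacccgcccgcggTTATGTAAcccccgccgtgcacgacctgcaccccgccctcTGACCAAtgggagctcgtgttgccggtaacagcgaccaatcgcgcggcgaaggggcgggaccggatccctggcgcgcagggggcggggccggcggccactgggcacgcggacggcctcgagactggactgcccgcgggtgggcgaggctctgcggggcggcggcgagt
Bhlhe41: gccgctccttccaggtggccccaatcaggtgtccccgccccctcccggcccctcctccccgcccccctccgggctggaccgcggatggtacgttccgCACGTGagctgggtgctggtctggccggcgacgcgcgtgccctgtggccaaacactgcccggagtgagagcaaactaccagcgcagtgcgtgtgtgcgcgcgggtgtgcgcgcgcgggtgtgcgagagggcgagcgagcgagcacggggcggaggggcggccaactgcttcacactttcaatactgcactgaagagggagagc
Tef: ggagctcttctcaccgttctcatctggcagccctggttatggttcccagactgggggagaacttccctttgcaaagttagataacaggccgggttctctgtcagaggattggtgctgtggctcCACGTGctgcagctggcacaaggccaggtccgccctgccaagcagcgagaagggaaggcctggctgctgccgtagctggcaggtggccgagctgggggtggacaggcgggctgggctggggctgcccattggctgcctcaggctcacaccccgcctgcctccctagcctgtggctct
Nfil3: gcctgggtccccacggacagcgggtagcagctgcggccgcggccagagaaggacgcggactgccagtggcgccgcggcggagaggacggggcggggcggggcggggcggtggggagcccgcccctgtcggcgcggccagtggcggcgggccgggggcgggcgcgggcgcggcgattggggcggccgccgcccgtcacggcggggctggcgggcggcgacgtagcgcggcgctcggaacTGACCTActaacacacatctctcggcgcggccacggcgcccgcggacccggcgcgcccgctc
The Arntl sequence is chr7:113207215-113207514 on the plus strand, the upstream one of 2 listed start sites, and holds 2 ROR cores, 200 to 194 and 181 to 175 bases upstream. The Per3 sequence, chr4:151044616-151044915 on the minus strand, holds 2 D-boxes, 205 to 198 and 158 to 151 bases upstream, and 1 ROR core on the opposite strand. Bhlhe41 (chr6:145865371-145865670, minus strand) and Tef (chr15:81802423-81802722, plus strand, the first of 2 start sites) each hold 1 E-box, 153 to 148 and 127 to 122 bases upstream. Nfil3 (chr13:52980990-52981289, minus strand) holds a ROR core on the opposite strand, 12 to 6 bases upstream. Of the start sites not shown, the second of Arntl holds 3 ROR cores, and the second of Tef holds 1 E-box and 1 ROR core. Of 32851 promoters of this length, 7.15% hold the E-box, 2.32% the D-box and 11.0% the ROR core, so a match is a description of these letters and not a site of binding.

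Among the activators, Arntl read 6.17, 5.16, 5.19, 4.43 and 4.64 in exposed lungs, against 7.75, 7.51, 7.70, 7.60 and 7.89 in control lungs. Every exposed animal lay below every control, and exposed animal 1 was the least shifted. The mean was 5.12 ± 0.67 in exposed and 7.69 ± 0.14 in control lungs (SD, n = 5 each), a log2 difference of -2.57 (SE 0.29, limma adjusted p = 9.7e-10). Npas2, the alternative partner of Arntl, read 4.92, 3.73, 3.99, 4.05 and 3.37 in exposed lungs, against 6.38, 5.88, 6.44, 5.99 and 6.49 in control lungs. Its exposed animals also all lay below the controls, with a difference of -2.22 (SE 0.29, adjusted p = 9.6e-08). The exposed mean, 4.01, was below 4.42, the lowest median of any array, so the fall of Npas2 ended near the dim range of the array. Clock, the third activator, did not pass, at -0.54 (SE 0.20, adjusted p = 0.44).

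Nr1d2 (Rev-erb beta), a nuclear receptor that represses Arntl, read 10.92, 10.90, 11.35, 11.36 and 11.57 in exposed lungs, against 9.47, 10.02, 9.53, 10.28 and 9.94 in control lungs. The groups did not overlap, and the rise was 1.37 (SE 0.30, adjusted p = 0.0071). Rora and Rorb, which activate Arntl, had differences of -0.17 and -0.13 that did not pass. Per3, a period gene, averaged 8.71 ± 0.45 in exposed and 7.44 ± 0.33 in control lungs, a rise of 1.27 (SE 0.21, adjusted p = 5.8e-05). Bhlhe41 (Dec2), a repressor at E-boxes, averaged 4.11 ± 0.11 in exposed and 3.43 ± 0.15 in control lungs, both in the dim range, and rose by 0.68 (SE 0.14, adjusted p = 0.0041). The other 6 genes of that role had differences of -0.53 (Cry1) to 0.83 (Per2), and none passed. Per1, which also answers to glucocorticoids, stood at 8.55 ± 0.26 in exposed and 8.37 ± 0.57 in control lungs, with a difference of 0.19 that became -0.01 without control animal 1.

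Of the output factors, Dbp read 8.26, 9.11, 9.17, 9.33 and 9.50 in exposed lungs, against 5.70, 6.57, 5.09, 6.16 and 5.18 in control lungs. The lowest exposed animal was again animal 1, and it still lay above every control. The difference of 3.33 (SE 0.43, adjusted p = 9.6e-08) is a 10.1-fold higher level. Its relatives Hlf and Tef rose by 1.20 (SE 0.25, adjusted p = 0.0032) and 0.96 (SE 0.16, adjusted p = 4.5e-05), both without overlap. Nfil3, which competes with them at D-boxes, read 5.80, 5.77, 5.51, 5.30 and 5.19 in exposed lungs, against 6.87, 7.64, 7.59, 6.61 and 7.01 in control lungs. No exposed animal reached a control, and Nfil3 fell by 1.63 on the log2 scale (SE 0.26, adjusted p = 3.9e-05). Usp2 and Wee1 had differences of -0.01 and 0.52 and did not pass. The clock genes that did not pass are named to account for the list, after their values were seen. None of the 9 clock calls was lost when any 1 of the 10 animals was left out. The labels place the killing in the morning and give no hour for an animal.

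**Figure D2:**
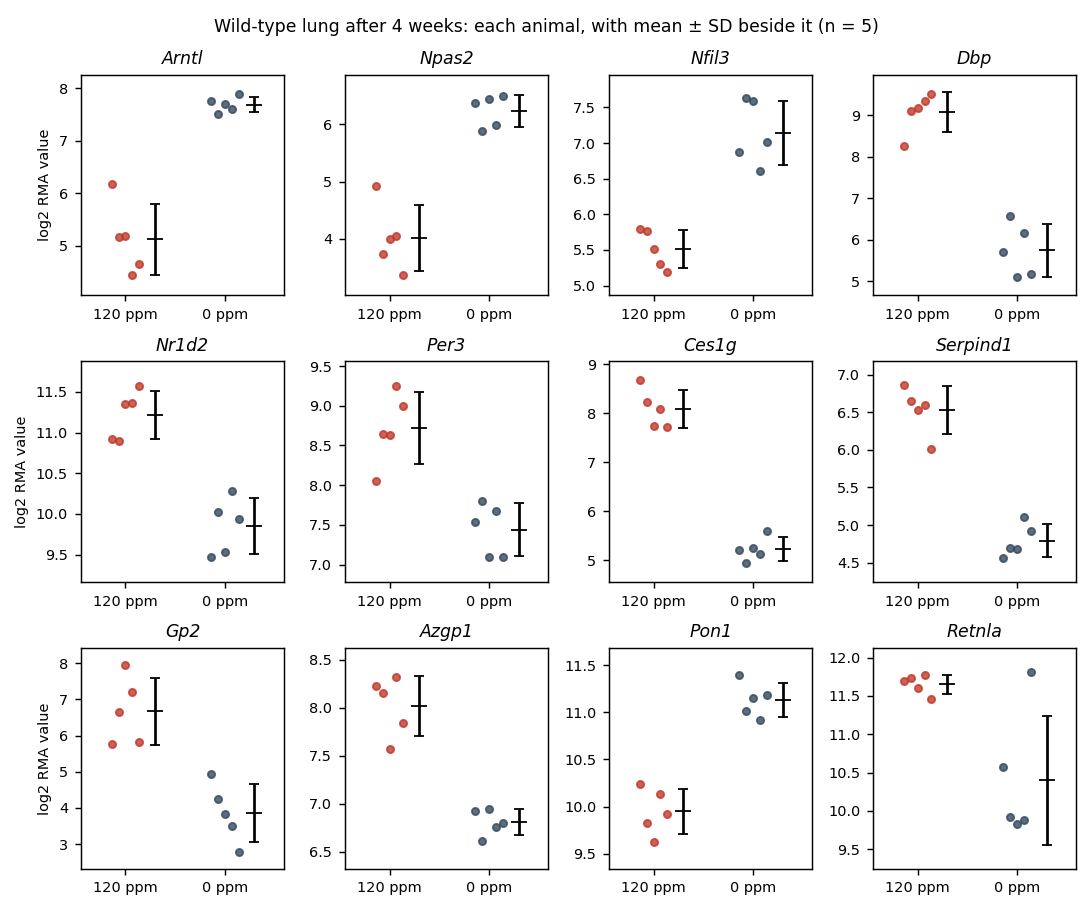
Each panel shows 1 gene on its own log2 RMA scale, with the 5 exposed animals (120 ppm, red) left of the 5 controls (0 ppm, dark blue) and the mean ± SD beside them. The groups overlap only for Retnla, where control animal 5 (11.81) lies above all exposed animals.

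Ces1g was the most clearly separated gene outside the clock. Its values were 8.67, 8.23, 7.74, 8.08 and 7.72 in exposed lungs, against 5.21, 4.95, 5.26, 5.14 and 5.60 in control lungs. The lowest exposed animal stood well above the highest control, and the difference was 2.85 (SE 0.21, adjusted p = 7.2e-18), or 7.24-fold. Of the xenobiotic enzymes listed, 32 were measured and only Ces1g passed. Among its relatives, Ces1c was also called at 0.79 (adjusted p = 0.015), with means of 3.90 in exposed and 3.12 in control lungs in the dim range, and it lost the call without exposed animal 1 (adjusted p = 0.091) or 4 (0.13) and in the fit of the 10 arrays alone (0.053). Ces1d, Ces1e and Ces1f had differences of 0.12, 0.29 and -0.21 and did not pass. These paralogs were looked up after the value of Ces1g was known, and probes of related carboxylesterases may share signal.

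Serpind1 (heparin cofactor II), an inhibitor of thrombin, had 6.86, 6.65, 6.53, 6.6 and 6.01 in exposed lungs, against 4.56, 4.70, 4.68, 5.11 and 4.92 in control lungs. All exposed animals were above all controls, and Serpind1 rose by 1.74 (SE 0.17, adjusted p = 2.6e-12). Gp2 had 5.77, 6.64, 7.95, 7.19 and 5.83 in exposed lungs, against 4.93, 4.25, 3.83, 3.49 and 2.78 in control lungs. Its spread was wide in both groups, without overlap, and its difference was 2.82 (SE 0.54, adjusted p = 0.00085). The Gp2 control mean of 3.86 was in the dim range. Azgp1, a secreted zinc-binding glycoprotein linked to lipid mobilisation, averaged 8.03 ± 0.31 in exposed and 6.81 ± 0.14 in control lungs, a rise of 1.22 (SE 0.21, adjusted p = 0.00013).

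The predicted gene Gm8126, of unknown role here, rose by 1.30 (adjusted p = 5.5e-07), with means of 4.75 in exposed and 3.45 in control lungs and no overlap. The rises below are of the 15 largest with a standard gene name. Tex11, known for its part in meiotic crossing over, rose by 1.77 (adjusted p = 0.00033), with a control mean in the dim range. Aoc1 (diamine oxidase), which breaks down histamine and putrescine, rose by 1.38 (adjusted p = 0.0092), a call lost without control animal 2, where the difference was 1.18 (adjusted p = 0.11). Sptssb, a small subunit of serine palmitoyltransferase in sphingolipid synthesis, rose by 1.36 (adjusted p = 0.0031), and the tetraspanin Tspan4 by 1.22 (adjusted p = 1.2e-05). Il1f9 (interleukin-36 gamma), an epithelial cytokine of the interleukin-1 family, rose by 1.21 (adjusted p = 0.0008), all without overlap. Fetub, a secreted protease inhibitor of the fetuin family, rose by 1.09 (adjusted p = 0.0082), but had an adjusted p of 0.058 without exposed animal 2 and of 0.052 without control animal 4.

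Retnla (RELM alpha), made by alternatively activated macrophages and airway epithelium, rose by 1.25 (SE 0.31, adjusted p = 0.039). It read 11.69, 11.73, 11.60, 11.78 and 11.46 in exposed lungs, against 10.57, 9.92, 9.83, 9.88 and 11.81 in control lungs. The exposed animals were close together, while control animal 5 stood above all of them and the other 4 controls below. The call was lost without any 1 of the other 9 animals (adjusted p 0.052 to 0.19) and in a fit of the 10 arrays alone (0.14). It was the only one of 17 alternatively activated macrophage genes to pass, and the median of that list was -0.05.

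The 15 deepest falls included, beside the 3 clock genes, Pon1, a paraoxonase that hydrolyses lactones and aryl esters. Pon1 read 10.24, 9.83, 9.63, 10.13 and 9.92 in exposed lungs, against 11.39, 11.01, 11.15, 10.92 and 11.18 in control lungs. The groups did not overlap, and Pon1 fell by 1.18 (SE 0.20, adjusted p = 6.5e-05), or 2.27-fold. The other 2 paraoxonases did not pass. Asgr1, a subunit of the asialoglycoprotein receptor, fell by 1.55 (SE 0.32, adjusted p = 0.004) with an exposed mean of 4.05 in the dim range. Spon2 (spondin 2), a matrix protein, averaged 5.81 ± 0.46 in exposed and 7.45 ± 0.31 in control lungs and fell by 1.64 (SE 0.32, adjusted p = 0.0016).

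Cdkn1a (p21), which arrests the cell cycle, read 8.45, 8.32, 8.57, 8.20 and 7.86 in exposed lungs, against 8.33, 9.78, 9.98, 9.61 and 9.98 in control lungs. Control animal 1 lay among the exposed animals and the other 4 controls well above them. The difference was -1.26 (SE 0.27, adjusted p = 0.006), and the adjusted p was 0.071 with only the 10 arrays fitted. Cdkn1a was the only one of 22 measured p53 targets to pass. Nr4a3, an orphan nuclear receptor and immediate early gene, fell by 1.39 (adjusted p = 0.01). Its other probe sets were dim, at -0.07 and -0.16, and the call was lost with median probe sets (-0.16). The adjusted p of Nr4a3 was 0.061 without exposed animal 4, 0.16 without control animal 2 and 0.060 with only the 10 arrays fitted. Adm (adrenomedullin), a vasodilator peptide, fell by 1.27 (adjusted p = 0.01), with 0.072 without exposed animal 4, 0.083 without exposed animal 5, 0.17 without control animal 1 and 0.13 in the fit of the 10 arrays. The small heat shock protein gene Hspb1 fell by 0.79 (adjusted p = 0.035). Its control animal 1, at 11.38, was also far below the other controls, and the call was lost without any 1 of 8 animals (adjusted p 0.056 to 0.23), in the fit of the 10 arrays (0.31) and with median probe sets (0.078).

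The remaining falls of the 15 were Mfsd4a, a transporter of the major facilitator family, at -0.96, Lonrf3, a ring finger protein, at -0.95, Fam124b at -0.95, Itih2, a heavy chain of the inter-alpha-trypsin inhibitors, at -0.91, Leo1, a subunit of the transcription-linked PAF1 complex, at -0.91, and Spaar, a micropeptide, at -0.90. Their adjusted p ran from 0.00036 to 0.0036, and the groups overlapped only for Fam124b, through control animal 2. The exposed means of Mfsd4a, Fam124b and Itih2 were in the dim range. Of the 75 genes, 13 had a control mean and 14 an exposed mean in that range, 8 of them in both.

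The enzymes of the Nrf2 and glutathione pathway, which clear quinones, epoxides and peroxides, were mostly not called. Of 32 measured genes 3 rose, against 0.298% of all genes, and none fell, against 0.14%. Of the 32, 25 had a positive difference, and the median was 0.08 beside 0.0085 for all genes. In KO lungs none of the 32 passed, against 0.0234% of all genes. There 22 were positive, where 54.7% of all genes were, and the median was 0.06 beside 0.012 for all genes. Cbr3, a carbonyl reductase, rose by 0.71 (SE 0.14, adjusted p = 0.0021), and had an adjusted p of 0.055 in the fit of the 10 arrays alone. Nqo1, a quinone reductase, read 7.19, 6.98, 6.44, 6.70 and 6.33 in exposed lungs, against 6.06, 5.98, 6.09, 5.95 and 5.74 in control lungs. Its animals did not overlap, and it rose by 0.76 (SE 0.18, adjusted p = 0.022), a call lost without any 1 of 6 animals (adjusted p 0.054 to 0.15), with the highest value without exposed animal 1. Gsto1, an omega class glutathione transferase, rose by 0.65 at the threshold itself (adjusted p = 0.048), and the call was lost without any 1 of 9 animals (0.066 to 0.22), on repeated quantile normalization and with a variance trend. Gpx2, a glutathione peroxidase of epithelia, had 9.47 ± 0.25 in exposed and 8.78 ± 0.22 in control lungs, without overlap, but did not pass (0.69, adjusted p = 0.11). 

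Other stress lists moved little by count, beside 0.439% of all genes that passed. Of 20 immediate early genes only Nr4a3 passed, although 17 differences were negative, with a median of -0.29 beside 0.0085 for all genes. Of 13 heat shock and cold-inducible genes only Hspb1 passed, 12 were negative and the median was -0.51. The mean level of the immediate early list was 7.65 to 7.96 in exposed lungs and 7.76 to 8.67 in control lungs, and that of the heat shock list was 9.60 to 10.18 and 10.15 to 10.99. No gene of the unfolded protein response (19 measured), the interferon (17) or the sterol and fatty acid synthesis (22) list passed. Of 23 inflammatory cytokine and chemokine genes, Ccl20, the ligand of Ccr6, alone was called, at 1.05 (SE 0.20, adjusted p = 0.0012). It read 5.46, 5.61, 5.59, 6.25 and 4.38 in exposed lungs, against 4.27, 4.34, 4.53, 4.08 and 4.84 in control lungs. Exposed animal 5 lay among the controls, and in the fit of the 10 arrays alone its adjusted p was 0.16.

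Apart from Retnla among the alternatively activated macrophage genes, no listed marker of an epithelial, endothelial or immune cell type passed. None of 19 club cell, 19 ciliated cell, 18 alveolar type II, 14 alveolar type I, 20 endothelial, 15 alveolar macrophage, 14 neutrophil, 20 T and NK cell or 16 B and plasma cell markers passed, and the list medians lay between -0.04 and 0.12. Some other lists leaned one way without a call, beside a median of 0.0085 over all genes. Of 12 smooth muscle and pericyte markers 10 were negative (median -0.14), as were 11 of 14 mast cell and eosinophil markers (median -0.07). Of 8 mesothelial markers 7 were positive (median 0.19). None of 19 mucous cell genes passed either. The largest difference there was 1.42 for Clca1, a goblet cell secretory protein, at 4.96 ± 0.97 in exposed and 3.54 ± 0.70 in control lungs. Agr2, a disulfide isomerase needed for mucin folding, differed by 1.26 (SE 0.47, adjusted p = 0.49), with overlap. Clca1 also overlapped and had an adjusted p of 0.97. Of 24 fibroblast and matrix genes only Spon2 passed, 20 differences were negative and the median was -0.28. The mean level of that list was 8.18 to 8.64 in exposed and 8.63 to 8.83 in control lungs. All 16 cardiac and skeletal muscle genes had negative differences with a median of -0.39, and none passed. Their mean level ran from 4.94 to 5.99 in exposed and from 4.98 to 6.94 in control lungs, with control animal 1 highest, and their part in the falls above was not tested.

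The 40 ppm dose after 4 weeks gave the next comparison, which asks how far the higher dose differs from the lower one. Set against each other, 120 and 40 ppm showed no gene that passed in limma (0% of 17097). The smallest adjusted p was 0.098, for the kininogen gene Kng1 (0.66). An unadjusted p under 0.05 was seen for 365 genes, fewer than that threshold gives over 17097 genes with no true difference. Both doses share the 0 ppm animals, so their changes are given side by side. At 0, 40 and 120 ppm Ces1g averaged 5.23 ± 0.24, 7.71 ± 0.30 and 8.09 ± 0.39, and its 120 minus 40 ppm difference was 0.37 (95% interval -0.04 to 0.79). Serpind1 averaged 4.79 ± 0.22, 6.20 ± 0.23 and 6.53 ± 0.31, with 0.33 between the doses (-0.01 to 0.66). Azgp1 averaged 6.81 ± 0.14, 8.01 ± 0.17 and 8.03 ± 0.31, with 0.02 (-0.40 to 0.43), and Pon1 11.13 ± 0.18, 10.11 ± 0.14 and 9.95 ± 0.24, with -0.16 (-0.55 to 0.23). For these genes, most of the distance from air was already present at the lower dose. Arntl averaged 7.69 ± 0.14, 5.90 ± 0.51 and 5.12 ± 0.67, and its interval, -1.36 to -0.21, lay below 0 before adjustment (adjusted p = 1). Against air, 40 ppm had 26 genes called (0.152%), 15 higher (0.0877%) and 11 lower (0.0643%).

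**Figure D3:**
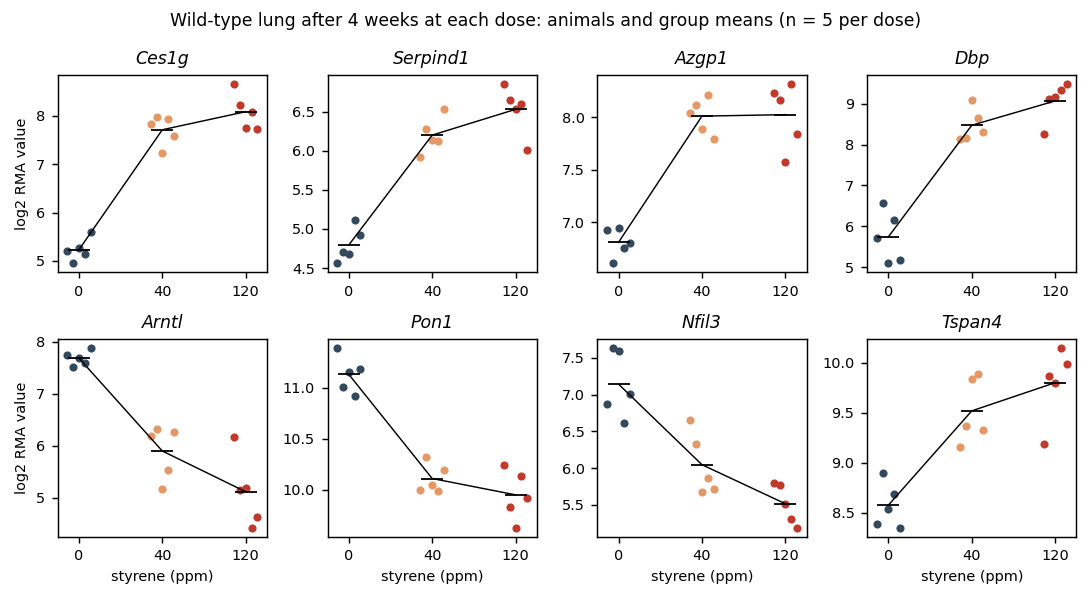
Each panel shows 1 gene in WT lung after 4 weeks, with dose in ppm on the x axis (evenly spaced, not to scale) and the log2 RMA value on the y axis, and points for animals and bars for the means of 5. For Azgp1 the means at 40 ppm (8.01) and 120 ppm (8.03) nearly coincide.

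The next question was whether 4 weeks of exposure differed from 1 week. In the 1-week exposed group the array of animal 3 stood apart, with the lowest median (4.42) and the highest actin 3' minus 5' value (0.52) of the 90 arrays and an array weight of 0.135, against 0.46 to 1.22 in the other 4. The part of array quality in its values was not tested, and values are given with and without it. The change at 120 ppm over each week's own controls differed for 151 genes (0.883%), 23 with a higher and 128 with a lower value at 4 weeks. The lowest were the mitosis genes Pbk, Cdk1, Cep55, Ccna2 and Top2a, with differences between weeks of -2.97, -2.77, -2.73, -2.58 and -2.45. Of 33 measured mitosis genes none passed at 4 weeks, with a median of -0.31 and 27 negative differences, and 32 rose at 1 week, with a median of 1.5. The test between weeks called 30 of them lower at 4 weeks. Of 31 DNA replication genes none passed at 4 weeks (median 0.06) and 29 rose at 1 week (median 0.94), with 18 called between weeks. Without that array 32 mitosis and 27 DNA replication genes were called lower at 4 weeks. At 1 week as a whole 1161 genes were called (6.79%), 674 higher (3.94%) and 487 lower (2.85%), and without that array 1844 (10.8%).

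Cdk1, the kinase that starts mitosis, read 5.22, 5.65, 5.60, 5.77 and 5.50 in exposed lungs after 4 weeks, against 6.13, 5.64, 5.92, 5.85 and 6.27 in their controls. After 1 week it read 8.45, 8.53, 6.32, 7.62 and 9.66 in exposed lungs, against 5.75, 5.12, 6.16, 6.12 and 5.66 in their controls. The exposed animals lay above all controls at 1 week and within or below their range at 4 weeks, a difference between the changes of -2.77 (SE 0.38, adjusted p = 1.4e-06). Mki67, the proliferation marker, was at 5.09 ± 0.47 in exposed and 5.82 ± 0.46 in control lungs after 4 weeks, and at 6.43 ± 0.85 and 4.94 ± 0.37 after 1 week. Its changes of -0.73 and 1.49 differed by -2.22 (adjusted p = 0.0039). The count was 90 without animal 5 of the 1-week exposed group, 269 without animal 4 and 296 (1.73%) without animal 3, where Cdk1 differed by -3.22 and Mki67 by -2.43. In a fit of the 20 arrays alone no gene passed (1003 at an unadjusted p under 0.05, and an adjusted p of 0.11 for Cdk1).

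Ghrl, the ghrelin gene, and Wfdc3, a secreted protein of the whey acidic protein family, were also set between the weeks. Ghrl averaged 4.88 ± 0.24 in exposed and 4.33 ± 0.32 in control lungs after 4 weeks, a difference of 0.55 that did not pass (adjusted p = 0.89), against a rise of 2.39 after 1 week. Wfdc3 averaged 5.59 ± 0.14 in exposed and 4.79 ± 0.09 in control lungs after 4 weeks. Its animals did not overlap, but the difference of 0.80 did not pass (adjusted p = 0.095), and it was 2.09 after 1 week. The weeks differed for both, by -1.84 (adjusted p = 0.0055) and -1.30 (adjusted p = 0.012), and by -2.40 and -1.76 without animal 3 of the 1-week exposed group. Cd177, a neutrophil surface protein, changed by 0.38 after 4 weeks and 2.33 after 1 week, a difference of -1.96 that did not pass (adjusted p = 0.093). Without that animal, which had 3.77 where the other 4 had 4.84 to 8.71, it was -2.64 and passed (adjusted p = 0.00023).

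Most of the genes called after 4 weeks were also called after 1 week in separate animals. This held for 36 of the 51 that were higher, where 3.94% of all genes were called higher at 1 week. It held for 18 of the 24 that were lower, where 2.85% were called lower. That makes 54 in all, or 72% of the 4-week calls and 4.65% of the 1-week calls. The sign was shared by 50 of 51 and 24 of 24, where 50.5% of all genes were positive and 49.5% negative at 1 week. Without animal 3 of the 1-week exposed group 53 were shared, or 2.87% of the 1-week calls in that fit, which called 10.8% of all genes. The sign was then the same for 50 of 51 and 22 of 24, where 59.5% of all genes were positive and 40.5% negative. Dbp rose by 3.33 after 4 weeks and 3.42 after 1 week, and Arntl changed by -2.57 and -2.43, with a difference between weeks of -0.14 (95% interval -0.95 to 0.67). Nfil3 changed by -1.63 and -1.08, a difference of -0.56 that did not pass (adjusted p = 0.87). Serpind1 was larger after 4 weeks, 1.74 against 0.63 after 1 week, and that difference of 1.10 passed (adjusted p = 0.0031). Azgp1, at 1.22 against 0.27, and Pon1, at -1.18 against -2.16, differed by 0.95 and 0.98 without passing (adjusted p = 0.13 and 0.065). In the animals exposed for 1 week Pon1 read 8.30, 8.49, 10.51, 9.54 and 8.49, with animal 3 nearest the controls. Without that animal the differences between weeks passed for Pon1 (1.34, adjusted p = 3e-05), Azgp1 (1.06, adjusted p = 0.042) and Ces1g (1.06, adjusted p = 0.0091), which had not passed with it (0.71, adjusted p = 0.47).

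**Figure D4:**
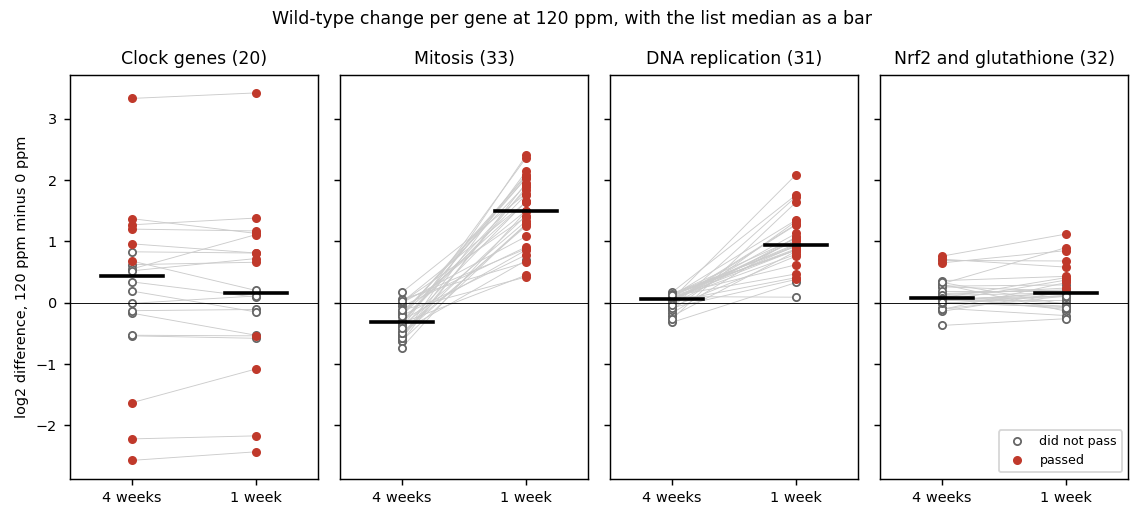
Each point is a gene of the named list in WT lung, with the log2 difference (120 ppm minus 0 ppm) after 4 weeks on the left and after 1 week on the right, joined by a line, filled where it passed, and with the list median as a bar. Mitosis genes have a median of -0.31 after 4 weeks and 1.5 after 1 week, while Dbp and Arntl stand at 3.33 and -2.57 after 4 weeks and at 3.42 and -2.43 after 1 week.

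The last comparisons asked whether these changes depended on the genotype. At 120 ppm after 4 weeks, each over its own controls, 4 genes were called in KO (0.0234%) and 2 in TG lungs (0.0117%), split evenly between higher and lower (0.0117% each in KO and 0.00585% each in TG). All of these were among the 75 WT calls. In KO lungs they were Dbp at 2.44 (adjusted p = 0.0019), Npas2 at -1.72 (0.00087), Arntl at -1.45 (0.017) and Tef at 0.75 (0.033), and in TG lungs Dbp at 2.12 and Npas2 at -1.43 (both 0.036). The same sign as in WT was seen for 41 of the 51 higher and 18 of the 24 lower genes in KO, where 54.7% of all genes were positive and 45.3% negative, and for 34 and 20 in TG, where the shares were 56.9% and 43.1%. The medians of the 51 and the 24 were 0.77 and -0.93 in WT, 0.17 and -0.39 in KO, and 0.08 and -0.36 in TG lungs, the WT values being larger in part because WT chose the genes.

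The change itself differed between WT and KO for 3 genes (0.0175%), of which Pon1 was the lower one (0.00585%), and between WT and TG for 5 (0.0292%). Ces1g read 3.79, 3.73, 3.61, 3.62 and 3.81 in exposed KO lungs, against 3.91, 3.62, 3.29, 3.49 and 3.44 in their controls. In TG lungs it read 3.48, 3.60, 3.64, 3.30 and 3.61 in exposed animals, against 3.51, 3.80, 3.09, 3.22 and 3.30 in controls. All of these lay below every WT control, in the dim range, and exposed and control animals overlapped in both lines. Its WT change exceeded that in KO by 2.69 (SE 0.30, adjusted p = 1.6e-09) and that in TG by 2.71 (adjusted p = 1.2e-09). Serpind1 had 4.77 ± 0.35 in exposed and 4.90 ± 0.19 in control KO lungs, and 4.76 ± 0.15 and 4.84 ± 0.20 in TG lungs, close to the WT controls. Its WT change was larger by 1.87 (adjusted p = 1.3e-07) and 1.82 (adjusted p = 3.8e-07).

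Pon1 had 10.84 ± 0.40 in exposed and 10.67 ± 0.08 in control KO lungs, and the WT change minus the KO change was -1.35 (adjusted p = 0.03). That call was lost without any 1 of 11 animals (adjusted p 0.051 to 0.15), with the highest value without exposed KO animal 2, and when dim genes were left out (0.056). Against TG the difference of -0.91 did not pass (adjusted p = 0.74). Kng1, the kininogen precursor of bradykinin, and Kcnmb4, a subunit of the BK potassium channel, differed from TG by 1.00 (adjusted p = 0.0084) and 0.99 (adjusted p = 0.041). Kng1 was dim in all groups and had an adjusted p of 0.078 without exposed WT animal 2, and Kcnmb4 lost its call without any 1 of 16 animals (0.058 to 0.17) and when dim genes were left out (0.13). The fifth gene was the predicted gene Gm8126, at 1.17 (adjusted p = 0.041), a call lost without any 1 of 13 animals (0.06 to 0.19). Asgr1, Aoc1, Il1f9 and Gp2 changed by -0.15 to 0.30 in KO and TG lungs, but the differences from WT did not pass (adjusted p 0.15 to 1). Other genes outside the clock moved in the WT direction in both lines without passing there, among them Spon2, Tex11, Tspan4 and Spaar. Spon2 averaged 6.15 in exposed and 7.40 in control KO lungs, and 6.54 and 7.37 in TG lungs. Tex11 averaged 5.42 and 4.54 in KO lungs, and 5.42 and 4.50 in TG lungs.

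No clock gene differed between genotypes after adjustment. Arntl read 6.57, 6.35, 5.55, 6.63 and 5.55 in exposed KO lungs, against 7.77, 7.78, 7.43, 7.40 and 7.53 in their controls, again without overlap. The WT change minus the KO change was -1.12 (95% interval -1.93 to -0.31, adjusted p = 1), and the WT change minus the TG change was -1.47 (-2.29 to -0.66, adjusted p = 0.42). For Dbp the differences were 0.89 (-0.31 to 2.10) and 1.21 (0.00 to 2.42). The Cyp2f2 probe set read 11.99 ± 0.11 in exposed KO lungs and 11.82 ± 0.14 in exposed TG lungs, against 13.19 ± 0.09 in exposed WT lungs. Its position relative to the deletion is unknown here, so it does not check the knockout.

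**Figure D5:**
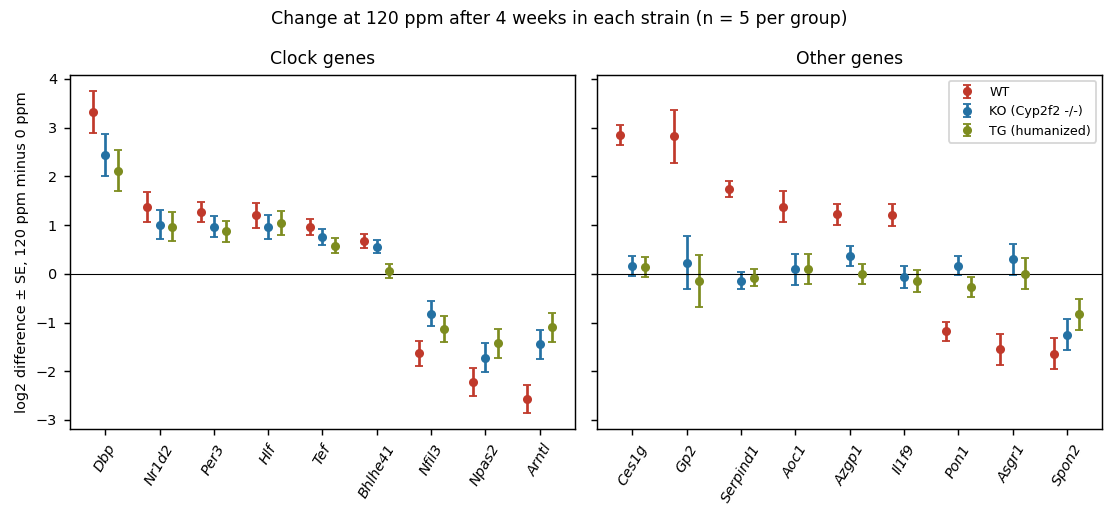
Each point is the log2 difference ± SE (120 ppm minus 0 ppm, 4 weeks, 5 animals per group) of 1 gene in WT (red), KO (blue) and TG (green) lungs, clock genes on the left and other genes on the right. The clock genes lie on the same side of 0 in all 3 lines. Spon2 lies below 0 in all 3 as well, while Ces1g stands at 2.85 in WT and at 0.16 and 0.14 in KO and TG.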

How the data were processed

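Lung RNA of 90 mice in 18 groups of 5 was measured on Affymetrix HT MG-430 PM arrays, and 10 of these arrays make the main comparison. The deposited values are log2 intensities per probe set, made by the authors with RMA, and Partek is also named, per the submitters' processing notes, with versions not given in the sources used here. Background correction and quantile normalization in RMA compress dim signals, so small changes of dim genes are understated. Of 45141 probe sets, 104 were controls, 28898 had 1 gene in GEO's platform annotation, 551 several and 15588 none here. The brightest probe set stood for each gene, leaving 17097 genes, and 7180 of these had more than 1 probe set. One limma model (limma 3.58.1, R 4.3.3) with 18 group means was fitted to all 90 arrays, sharing 1 estimate of spread, and p-values were adjusted by Benjamini-Hochberg over all genes at 0.05. Differences between weeks, doses and genotypes were contrasts of that model. The fit was tested on simulated data with 200 changed genes. Precision is limited by the 5 arrays per group. The labels do not say whether animals shared a litter or cage. The p-values then measure only the spread between animals within the 18 groups, shared over all 90 arrays and not taken from the compared groups alone.

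Named genes were those that passed, up to 15 in each direction by size of change (predicted genes only among the first 5), the 5 largest each way in the other comparisons, up to 4 members of each gene list by size (those that passed, or any where none did), and a fixed set of lung genes. Members and lists were chosen with earlier results of these data known. Replicate numbers were not used as pairs, since same-numbered animals correlated at -0.15 to 0.14. The alternatives were other normalizations, filters, probe set rules, array weights, a poly-A covariate, variance trends, subsets of arrays, a replicate block and leaving out each animal.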

Additional observations from a re-analysis of the deposited data

Results flagged for a closer look

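In 6 of 174 groups of 5 animals (87 genes in both groups), 1 animal stood apart from the other 4, and chance gives this in about 1 in 20 groups. Control animal 1 had 8.33 for Cdkn1a, where the other controls had 9.61 to 9.98, and 11.38 for Hspb1, where they had 12.59 to 12.92. Control animal 2 had 3.97 for Fam124b (others 4.73 to 4.89) and 6.11 for Spaar (others 6.74 to 6.91). Exposed animal 1 had 8.99 for Fam76a (others 9.25 to 9.35) and 6.54 for Leo1 (others 6.11 to 6.19).

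The test of the difference itself passed for several genes. Between weeks (4 minus 1) the change differed by -2.77 for Cdk1, -2.22 for Mki67, -1.84 for Ghrl, -1.30 for Wfdc3, 1.10 for Serpind1, 1.31 for Gm8126 and 0.58 for Krtap5-5. Between genotypes (WT minus KO) it differed by 2.69 for Ces1g, 1.87 for Serpind1 and -1.35 for Pon1. For WT minus TG it differed by 2.71 for Ces1g, 1.82 for Serpind1, 1.17 for Gm8126, 1.00 for Kng1 and 0.99 for Kcnmb4.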

How the results depend on the processing

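Of the 75 genes called at 120 ppm, 32 kept their direction and their call in every alternative run that tested them. Whichever animal was left out, 38 kept both. The dim-gene filter left only 53 of the 75 to be tested, and all 53 kept the call. The number of genes called was 209 with array weights (126 higher, 83 lower) and 118 without low-weight arrays. It was 116 with the poly-A covariate and 54 without dim genes. It ranged from 47 to 69 when 1 animal was left out. A fit of the compared arrays alone called 74, of which 48 were shared. Between 120 and 40 ppm, quantile normalization and array weights called 1 gene each, and leaving out 1 animal gave 0 to 1. Between weeks, 49 genes were called without dim genes, 0 with only the compared arrays, 292 with array weights, 367 without low-weight arrays and 247 with the poly-A covariate, and 90 to 296 when 1 animal was left out. For WT minus KO the counts were 0 without dim genes, 6 with only the compared arrays and 6 with array weights, and 2 to 4 with 1 animal left out. For WT minus TG they were 0, 12 and 33 in the same order, and 2 to 6. The dim-gene filter leaves 10258 genes. Ces1g and Serpind1 fall below it, and Pon1 (adjusted p = 0.056) and Kcnmb4 (0.13) stay above it and lose their calls. An unadjusted limma p under 0.05 was then seen for 167 and 411 genes, fewer than that threshold gives over 10258 genes with no true difference. The direction turned for Fkbp5, at 0.08, which was -0.13 with median probe sets, -0.05 with array weights, -0.20 without control animal 1 and -0.06 without control animal 2, and reached 0.32 without control animal 5. It also turned for Ahcyl2, at -0.56, which was 0.08 with median probe sets, while its other probe sets gave 0.08 and -0.45. Per1 turned too (-0.01 without control animal 1, and 0.34 without control animal 2). The cause was not tested. With the replicate number as a block, although the numbers do not pair the samples, 97 genes were called (59 higher, 38 lower, all 75 included), and 0, 171, 3 and 4 in the other comparisons. The fit without animal 3 of the 1-week exposed group, for genes and lists, was chosen after seeing the data. Dim signal limits Gp2, Npas2, Bhlhe41, Asgr1 and Kng1.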
